A study of Rattus norvegicus with 10 samples.

Results

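Expression of 10 circadian clock genes, Per1, Per2, Per3, Arntl, Clock, Nr1d1, Nr1d2, Dbp, Cry2 and Tef, was examined in the left hippocampus of male TgF344-AD rats fed the compound BT-11 or plain chow. The members were taken as a fixed list of gene symbols and matched exactly in the deposited count table, where all 10 were found among 13686 symbols. The BT-11 group was 5 transgenic males that received BT-11 in chow from 5 months of age for 6 months. The untreated group was 5 transgenic males on plain rodent chow. All 10 rats were 11 months old, were anaesthetised with ketamine and xylazine, and were perfused with cold saline before the hippocampus was frozen. TgF344-AD rats model Alzheimer disease through transgenes driven by the mouse prion promoter, and rats of both groups carry them. BT-11 is a small molecule that binds LANCL2 and can be given by mouth. Each library came from the left hippocampus of a separate rat. The labels used here give no time of day for the sampling.

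The circadian clock is a transcriptional loop that runs in most cells of the body. CLOCK and BMAL1 (the product of Arntl) bind E-box sequences and drive the Per and Cry genes, whose proteins then repress CLOCK and BMAL1. The same pair drives Nr1d1 and Nr1d2, which encode the REV-ERB repressors of Arntl, and Dbp and Tef, whose products are activators that bind D-box sequences. In rodent tissues with a running clock, transcripts of Arntl are known to be high when those of Dbp, Nr1d1 and the Per genes are low, so that these genes are used as a readout of the time of sampling. Per1 is also known to be induced within a short time by glucocorticoids and by CREB signalling in active neurons.

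Promoters of 4 members are shown. In 3 the window holds the letters of a clock sequence near the start site, and that of Per1 is shown because this gene is followed further below. The sequences are RefSeq's for build GRCr8, each a window that runs from upstream of the gene's start to just past it, on the gene's own strand. Per2, a core repressor, lies at chr9:99496944-99497243 (minus strand), Arntl at chr1:176766078-176766377 (plus strand, listed as Bmal1), Tef at chr7:115206577-115206876 (plus strand) and Per1 at chr10:54304126-54304425 (plus strand). Capitals mark a D-box in Per2, a ROR response element, the site that REV-ERB repressors and their ROR counterparts share, in Arntl, and an E-box in Tef. No match to the letters searched was found in the 300 bases of the Per1 window, and sites outside it or with other letters were not sought. The GRCr8 windows were not tied to the rn6 gene models that were counted.
Per2: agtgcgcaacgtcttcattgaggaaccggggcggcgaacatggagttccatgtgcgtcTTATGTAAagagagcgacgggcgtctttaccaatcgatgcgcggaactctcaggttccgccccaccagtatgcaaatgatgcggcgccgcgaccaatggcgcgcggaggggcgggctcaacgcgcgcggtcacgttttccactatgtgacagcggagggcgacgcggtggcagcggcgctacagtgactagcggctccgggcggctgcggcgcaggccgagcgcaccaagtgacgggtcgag
Arntl: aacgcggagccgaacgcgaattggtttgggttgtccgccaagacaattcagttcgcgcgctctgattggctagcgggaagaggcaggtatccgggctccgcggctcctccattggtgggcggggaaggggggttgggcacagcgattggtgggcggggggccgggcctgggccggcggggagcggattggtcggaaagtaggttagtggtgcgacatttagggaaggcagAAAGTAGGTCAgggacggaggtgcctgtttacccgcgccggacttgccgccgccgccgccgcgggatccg
Tef: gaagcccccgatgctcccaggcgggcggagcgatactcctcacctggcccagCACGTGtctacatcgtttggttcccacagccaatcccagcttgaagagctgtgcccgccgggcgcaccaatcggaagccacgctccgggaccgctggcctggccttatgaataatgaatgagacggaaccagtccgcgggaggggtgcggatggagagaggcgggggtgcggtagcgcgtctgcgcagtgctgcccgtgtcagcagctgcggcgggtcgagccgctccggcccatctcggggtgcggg
Per1: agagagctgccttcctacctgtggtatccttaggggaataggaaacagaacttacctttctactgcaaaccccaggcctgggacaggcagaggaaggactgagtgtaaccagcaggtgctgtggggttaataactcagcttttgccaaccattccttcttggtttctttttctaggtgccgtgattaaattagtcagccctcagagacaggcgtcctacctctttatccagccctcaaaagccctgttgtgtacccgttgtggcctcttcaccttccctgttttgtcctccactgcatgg

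All 10 members had a promoter in that table. The E-box (CACGTG) was found in 1 of 10 windows, that of Tef at bases -198 to -193 from the start site, and in 6.65% of all 27457 promoters. The D-box (TTATGTAA or TTACGTAA) was found in 1 window, that of Per2 at -192 to -185, against 1.01% of all promoters. The ROR response element was found in 1 window, that of Arntl at -20 to -10, against 0.317% of all promoters. The cyclic AMP response element (TGACGTCA) was in none of the 10 windows and in 1.91% of all promoters. Both strands were searched, and no motifs overlapped in these windows. A match describes letters in this window and is not a measured binding site.

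Transcript levels were set against each other per length, as CPM (counts scaled to a library total of 1e+06) divided by the length of the gene model in kilobases and summed over the gene models of a symbol. Tef had the highest level, at 85.6 ± 5.77 CPM per kilobase (SD over all 10 libraries), followed by Dbp at 67.7 ± 9.23 and Nr1d1 at 45.3 ± 4.95 CPM per kilobase. Neighbours in this order from Tef to Nr1d1 overlapped between libraries. Cry2, a repressor that partners the PER proteins, was at 32.9 ± 2.38 CPM per kilobase and Nr1d2 at 23.4 ± 2.22 CPM per kilobase. No library's level of Cry2 overlapped those of Nr1d1 above it or Nr1d2 below it. Per1, Clock and Arntl followed at 12.3 ± 2.77, 10.3 ± 1.05 and 9.60 ± 0.97 CPM per kilobase, with overlapping ranges. Per2 was at 7.77 ± 0.95 and Per3 at 4.98 ± 1.15 CPM per kilobase, again with overlapping ranges. All members were well counted, from 89 estimated counts of Per3 in the lowest library to 4255 of Tef in the highest.

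The first comparison asked whether BT-11 and untreated rats differed in clock gene expression. Per3 had the largest difference among the members, with a higher mean in BT-11 rats, and Dbp and Nr1d1 had lower means in BT-11 rats. By the quasi-likelihood test of edgeR, the smallest adjusted p among the 10 was 0.475, so that none passed 0.05, and none passed in DESeq2. Of all genes tested, edgeR called 0% of 11771 and DESeq2 0.292% of 13682. At an unadjusted p of 0.05, edgeR counted 2 members, Per3 higher and Dbp lower, beside 9.09% of all genes tested (4.04% higher and 5.05% lower). DESeq2 and limma-voom also counted 2 each, beside 1168 of 13682 and 1053 of 11771 genes tested. With the replicate block, and likewise with the set of replicate numbers as a covariate, edgeR counted 4, adding Clock higher and Nr1d1 lower. Of the 11771 genes tested, 1320 were counted with the block and 1312 with the covariate. The BT-11 and untreated libraries overlapped for all 10 members, and did not overlap for 1.12% of all genes tested (0.578% higher and 0.544% lower with BT-11). The members' fold changes ran from -0.21 to 0.41 on the log2 scale, 6 higher and 4 lower with BT-11, with a median of 0.04 beside -0.01 over all genes tested. A clock gene that is at a lower level in the tissue cannot here be told apart from fewer cells that express it.

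**Figure D1:**
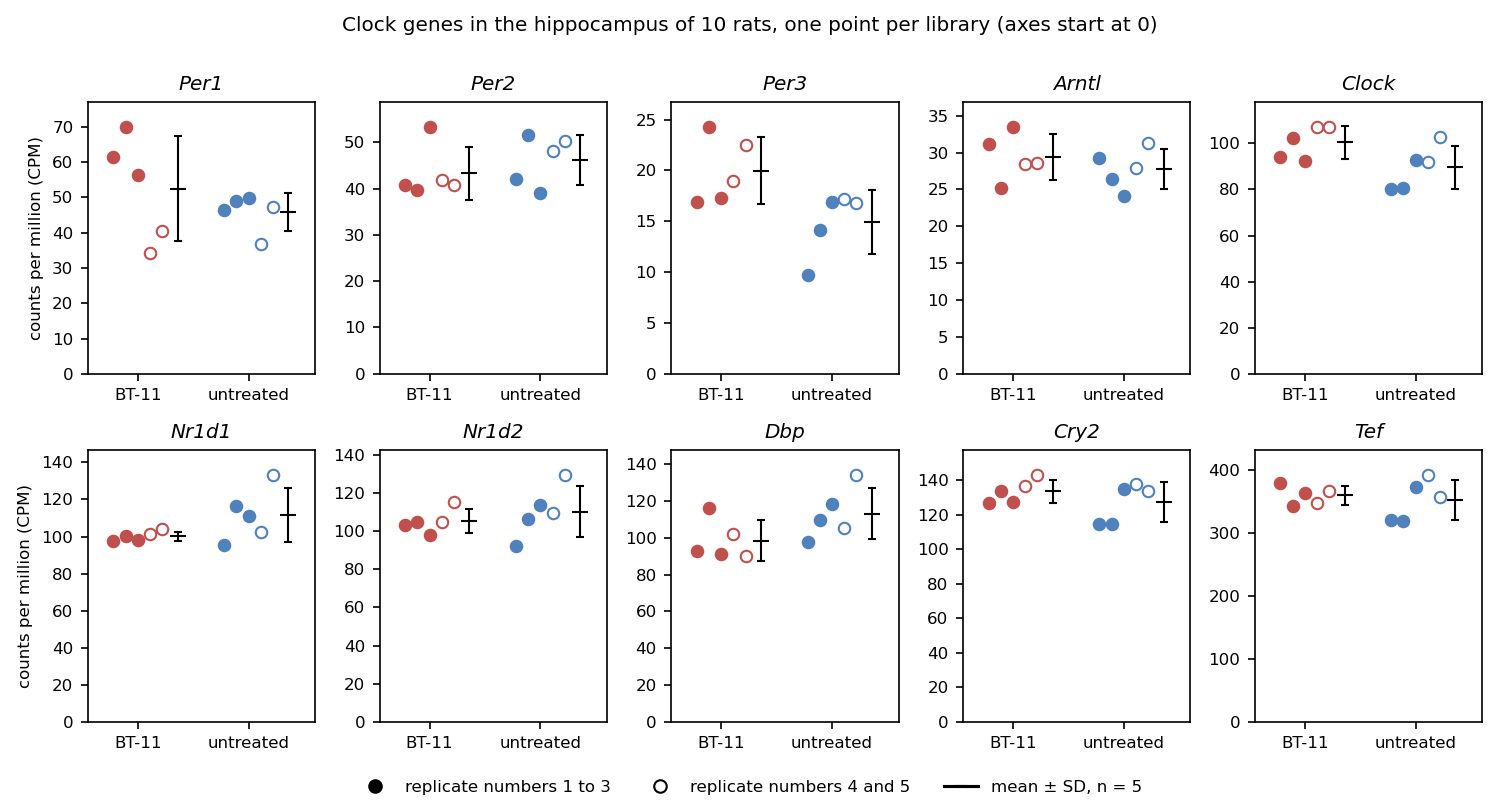
CPM of each clock gene in every library, BT-11 at the left and untreated at the right of each panel. Filled points are replicate numbers 1 to 3, open points numbers 4 and 5, and bars give the mean ± SD of 5 rats. The groups overlap in every panel. Per3 comes closest to separating, and Per1 has its lowest points in libraries numbered 4 and 5.

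Per3, the period gene that is known to be the least needed for the rhythm itself, was at 16.9, 24.3, 17.3, 18.9 and 22.5 CPM in BT-11 replicates 1 to 5. In untreated replicates 1 to 5 it was at 9.70, 14.1, 16.9, 17.1 and 16.8 CPM. BT-11 replicate 1 lay just below untreated replicates 3 and 4, the other BT-11 libraries lay above every untreated one, and untreated replicate 1 was the lowest of all. The log2 fold change was 0.41 ± 0.15 (SE, 95% interval 0.08 to 0.74; edgeR adjusted p = 0.475). BT-11 replicate 2, the highest in Per3, also had the highest summed level of 9 striatal markers, 329 CPM beside 176 to 225 CPM in the other 9 libraries. Its summed level of 10 thalamic markers was 321 CPM beside 160 to 254 CPM. Without that library the log2 fold change of Per3 was 0.34, and the part of neighbouring tissue in its level was not tested further.

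Dbp, the D-box activator whose transcript is known for one of the widest daily swings, was at 92.8, 116, 91.0, 102 and 90.2 CPM in BT-11 replicates 1 to 5. In untreated replicates 1 to 5 it was at 97.7, 109, 118, 105 and 134 CPM. Of the BT-11 libraries, replicates 2 and 4 lay inside the untreated range and the others below it. The log2 fold change was -0.21 ± 0.09 (SE, 95% interval -0.41 to -0.02; edgeR adjusted p = 0.52). Without untreated replicate 5, the highest in Dbp, it was -0.15, and without untreated replicates 2 and 5 it was -0.14. With a choroid plexus score as a covariate it was -0.17 ± 0.11 (SE). The table lists Dbp on 3 gene models at the same locus, and taking the most highly counted model in place of their sum gave -0.09.

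Nr1d1, which encodes REV-ERB alpha, was at 97.4, 100.1, 98.0, 101 and 104 CPM in BT-11 rats. In untreated rats it was at 95.3, 117, 111, 102 and 133 CPM. The BT-11 libraries lay close together at the low end of the untreated range, which was widest because of untreated replicate 5. The log2 fold change was -0.17 ± 0.08 (SE; edgeR adjusted p = 0.555). Without untreated replicate 5 it was -0.10, and without untreated replicates 2 and 5 it was -0.05. Those 2 libraries, the highest in Nr1d1, were also the highest in 11 choroid plexus markers, with summed levels of 4585 and 1102 CPM beside 118 to 223 CPM in the other 8 libraries. With a choroid plexus score as a covariate the log2 fold change of Nr1d1 was -0.09 ± 0.09 (SE; edgeR adjusted p = 0.999). Nr1d2, which encodes REV-ERB beta, was at 97.9 to 115 CPM in BT-11 and 92.2 to 129 CPM in untreated libraries, a log2 fold change of -0.08 ± 0.08. It was -0.014 without untreated replicate 5 and -0.013 without untreated replicates 2 and 5.

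Clock, the partner of BMAL1, was at 94.0, 102, 92.1, 107 and 107 CPM in BT-11 replicates 1 to 5, against 80.2, 80.8, 92.6, 91.9 and 103 CPM in untreated replicates 1 to 5. Untreated replicates 1, 2 and 4 lay below every BT-11 library, and untreated replicates 3 and 5 lay within the BT-11 range. The log2 fold change was 0.15 ± 0.08 (SE; edgeR adjusted p = 0.588), and 0.09 with the most highly counted of the 2 Clock gene models. Arntl was at 31.2, 25.2, 33.5, 28.4 and 28.6 CPM in BT-11 libraries, against 29.2, 26.4, 24.2, 27.9 and 31.3 CPM in untreated ones. The groups of Arntl overlapped almost fully, with a log2 fold change of 0.07 ± 0.10.

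Among the repressors, Per2 was at 40.8, 39.6, 53.3, 41.8 and 40.8 CPM in BT-11 libraries. In untreated libraries it was at 42.0, 51.5, 39.0, 48.1 and 50.3 CPM. BT-11 replicate 3 was the highest of all 10, and the other BT-11 libraries were near the low end. The log2 fold change of Per2 was -0.11 ± 0.11 (SE), and it was -0.023 with the choroid plexus covariate and -0.0063 without untreated replicates 2 and 5. Cry2 was at 127 to 143 CPM in BT-11 and 115 to 138 CPM in untreated libraries, with a log2 fold change of 0.06 ± 0.07. Tef, the other D-box activator, was at 343 to 380 CPM in BT-11 and 319 to 393 CPM in untreated libraries, with a log2 fold change of 0.02 ± 0.07. The 95% intervals for Cry2 and Tef ran from -0.09 to 0.21 and from -0.13 to 0.17.

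**Figure D2:**
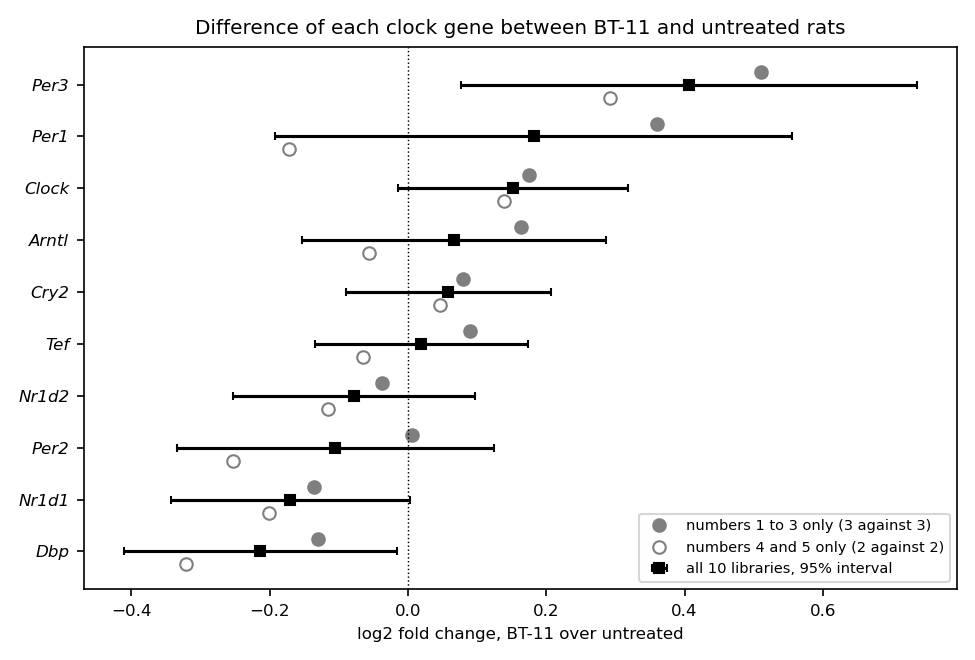
Log2 fold change of each clock gene, BT-11 over untreated, with squares and 95% intervals from all 10 libraries. Filled circles use replicate numbers 1 to 3 alone and open circles numbers 4 and 5 alone, both without intervals. Per3 lies furthest to the right at 0.41 and Dbp furthest to the left at -0.21, and the circles of Per1 lie on opposite sides of 0.

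Of genes that are known to peak at nearby times of day, Per3 had a positive and Dbp and Nr1d1 negative fold changes. Arntl, known for the opposite phase, was near 0. None of these fold changes passed the adjusted test, so their directions are a description. A difference in the time of sampling was not tested. The members varied between animals about as much as other genes. The SD of log2 CPM within groups ran from 0.10 for Cry2 and Tef to 0.33 for Per1, with a median of 0.14 over the members and 0.15 over the 8739 tested genes with a mean of at least 10 CPM. The highest library held 1.49 times the lowest for Dbp, 1.39 times for Arntl, 2.04 times for Per1 and 2.50 times for Per3.

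Other genes of the clock were read from 3 lists of 48 genes, of which 43 were in the table and 41 passed the filter on low counts. Of these 41, 27 had a positive and 14 a negative log2 fold change, with a median of 0.03, and edgeR called none at an adjusted p of 0.05. At an unadjusted p of 0.05 there were 3 higher and 1 lower, beside the same 9.09% of all genes tested. Core clock genes had small values. Cry1, a close relative of Cry2, was at 14.1 ± 1.21 CPM in BT-11 and 15.2 ± 1.32 CPM in untreated rats (SD, n = 5 each). Its log2 fold change was -0.12 ± 0.09 (SE). Npas2, a relative of Clock that is strongly expressed in the forebrain, had -0.26 ± 0.16 and Ciart, a repressor of CLOCK and BMAL1, -0.28 ± 0.15. The E-box repressor gene Bhlhe40 had 0.22 ± 0.15 and Nfil3, whose product represses at D-boxes, 0.19 ± 0.18. Hlf and Bhlhe41 were not analysed here.

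Of the outputs and modifiers with the smallest p, Pdp1, a phosphatase that activates pyruvate dehydrogenase, was at 47.7 ± 4.71 CPM in BT-11 and 39.5 ± 2.35 CPM in untreated rats (SD, n = 5 each). Every BT-11 library of Pdp1 lay above every untreated one, which held in the upward direction for 0.578% of all genes tested. Its log2 fold change was 0.26 ± 0.07 (SE; edgeR adjusted p = 0.434). Rev1, a DNA polymerase that bypasses damaged bases, had 0.22 ± 0.07, and Por, the reductase that serves cytochrome P450 enzymes, 0.16 ± 0.07. Noct, a rhythmic phosphatase known as nocturnin, had -0.23 ± 0.09, and the neuropeptide gene Vip -0.50 ± 0.23. Ncor1, a corepressor that REV-ERB proteins recruit, had 0.13 ± 0.08. None of these 6 genes passed the adjusted test.

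The second comparison set the libraries with replicate numbers 4 and 5 against those with numbers 1 to 3. The labels do not name these numbers as a batch, and the split was first seen in the expression of all genes in these libraries, so the difference between the sets is described and not tested. After TMM normalization Per1 was the 1 member of 10 whose sets did not overlap. That share is near the 9.93% of all genes tested that did not overlap in either direction. In BT-11 rats it was at 34.3 and 40.4 CPM in numbers 4 and 5, against 61.6, 70.0 and 56.3 CPM in numbers 1 to 3. In untreated rats it was at 36.7 and 47.3 CPM in numbers 4 and 5, against 46.6, 49.0 and 49.7 CPM in numbers 1 to 3. On these values the sets were far apart in BT-11 rats and overlapped in untreated rats, where number 5 lay above number 1. Over all 5 rats a group the log2 fold change of Per1, BT-11 over untreated, was 0.18 ± 0.17 (SE, 95% interval -0.19 to 0.56; edgeR adjusted p = 0.777).

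The difference of Per1 between numbers 4 and 5 and numbers 1 to 3 was -0.75 in BT-11 and -0.23 in untreated rats, in mean log2 CPM after TMM normalization. On that scale all 4 libraries lay below all 6 others, as they did for 4.37% of all genes tested (5.56% were higher in all 4, and 9.93% did not overlap in either direction). On library totals alone untreated replicate 5 (47.3 CPM) lay above untreated replicate 1 (46.6 CPM), and the sets overlapped. The other 9 members overlapped between the sets. Of these 9, 5 (Per3, Clock, Nr1d1, Nr1d2 and Cry2) had a positive difference in both treatments, as did 31.1% of all genes tested, with mean differences from 0.08 for Nr1d1 to 0.22 for Per3. Per2, Arntl, Dbp and Tef differed in sign between the treatments, with mean differences from 0.02 to 0.06.

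**Figure D3:**
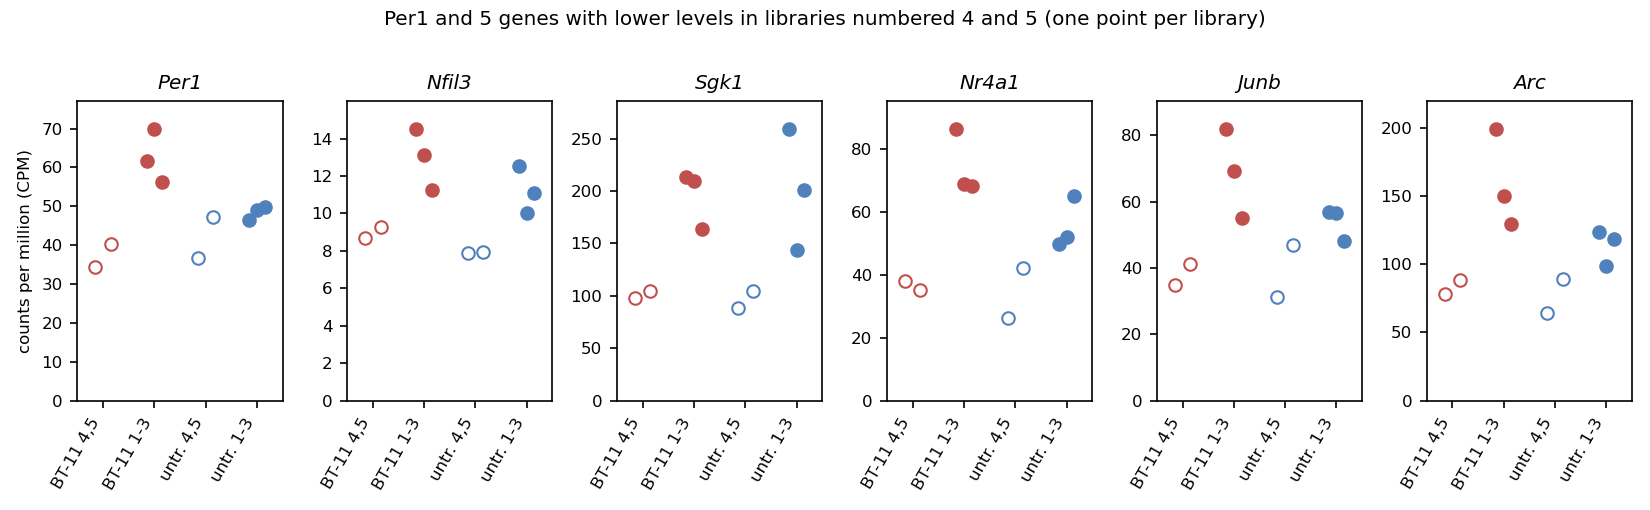
CPM of Per1 and of 5 genes whose libraries numbered 4 and 5 all lay below those numbered 1 to 3, with open points for numbers 4 and 5 and filled points for numbers 1 to 3. BT-11 libraries are red and untreated libraries blue. Nfil3, Sgk1, Nr4a1, Junb and Arc were picked for this pattern after their values were seen, and genes with the opposite pattern are not shown. Per1 shares the pattern in BT-11 rats. In untreated rats Per1 of number 5 lies above that of number 1 on this scale.

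The BT-11 difference of Per1 had opposite signs in the 2 sets of numbers. Within numbers 1 to 3 the log2 fold change was 0.36 ± 0.09 (SE, 3 against 3 rats, edgeR adjusted p = 0.597). There 7.57% of all genes had an unadjusted p under 0.05, and none passed after adjustment. Within numbers 4 and 5 the log2 fold change was -0.17 ± 0.14 (2 against 2 rats; edgeR adjusted p = 0.577). Of the members Per2 had the smallest adjusted p there, with a log2 fold change of -0.25 ± 0.09 (edgeR adjusted p = 0.15), where 18.6% of all genes had an unadjusted p under 0.05 and 4.02% passed after adjustment. The interaction of treatment with the set of numbers was -0.53 ± 0.18 for Per1 (SE; edgeR adjusted p = 0.392) and did not pass the test. The sets and Per1 were both picked from these libraries, so neither this value nor the fits within a set are independent support. No member and 0% of all genes passed for the interaction, while 10.3% of all genes had an unadjusted p under 0.05. Per1 was the 1 member among them. Without untreated replicate 3 the interaction test called 251 genes and without untreated replicate 4 it called 1, in both cases no member. In simulated data this interaction test called 23.0% of genes changed 2-fold, so it could miss changes of that size.

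Many genes that glucocorticoids or neuronal activity are known to induce were, like Per1, lower in numbers 4 and 5. Of 14 tested glucocorticoid-induced genes, 12 were lower in numbers 4 and 5 than in numbers 1 to 3 in both treatments, beside 31.9% of all genes tested. All 4 libraries lay below all 6 for 5 of them, Sgk1, Errfi1, Ddit4, Nfkbia and Mt2A, beside the 4.37% over all genes. Their summed level was 730 to 843 CPM in numbers 4 and 5, against 929 to 1191 CPM in numbers 1 to 3. The other 2 differed. Zbtb16 was higher in numbers 4 and 5 in both treatments, by 0.38 in BT-11 and 0.50 in untreated rats (mean log2 CPM), and Fkbp5, which encodes a cochaperone of the glucocorticoid receptor, had differences of 0.31 in BT-11 and -0.24 in untreated rats. Sgk1, a kinase gene that corticosteroids are known to induce, was at 97.6 and 104 CPM in BT-11 and 88.6 and 105 CPM in untreated rats with numbers 4 and 5. In numbers 1 to 3 it was at 213, 210 and 164 CPM in BT-11 and 260, 143 and 201 CPM in untreated rats.

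Of 20 activity-induced genes, 15 were lower in numbers 4 and 5 in both treatments, beside 31.9% of all genes tested. The others went otherwise. Ptgs2 was higher in numbers 4 and 5 by 0.51 in BT-11 and 0.18 in untreated rats (mean log2 CPM). Homer1 was higher by 0.17 and 0.18 and Nr4a3 by 0.08 and 0.27 in the same order. Egr3 and Bdnf differed in sign between the treatments. All 4 libraries lay below all 6 for 3 of them, Junb, Arc and Nr4a1, beside 4.37%. Arc, which encodes a synaptic protein made on strong activity, was at 78.4 and 88.5 CPM in BT-11 and 64.1 and 89.3 CPM in untreated rats with numbers 4 and 5. In numbers 1 to 3 it was at 200, 150 and 129 CPM in BT-11 and 124, 98.4 and 119 CPM in untreated rats. Between treatments, 14 of these 20 genes had a positive log2 fold change with BT-11, with a median of 0.23, and edgeR called none (4 had an unadjusted p under 0.05, all higher, beside 4.04% of all genes tested). Among the other clock genes, Nfil3 was at 8.70 and 9.30 CPM in BT-11 rats with numbers 4 and 5. In untreated rats with those numbers it was at 7.90 and 7.96 CPM, against 10.0 to 14.5 CPM in the 6 other libraries. Nfil3 was the 1 gene of the 41 tested whose 4 libraries all lay below the 6 others, beside 4.37% of all genes tested. For 4 of the 41, Csnk1a1, Csnk2a1, Gsk3b and Ubr1, all 4 libraries lay above all 6, beside 5.56%. The glucocorticoid and activity lists share Dusp1, and the part of either list in the level of Per1 was not tested.

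The third comparison asked how the members varied together between animals. Correlations used log2 CPM with the mean of each treatment group removed, over 10 libraries and 45 pairs, with permutation p-values adjusted over the 45. Values were permuted across both groups after that removal. The p-values do not allow for the removed means, so they are approximate and may be too small. Clock and Cry2 had a Pearson r of 0.85 (permutation p = 0.00213, adjusted p = 0.0479) and a Spearman rho of 0.84 (permutation p = 0.00365, adjusted p = 0.0821), and r was 0.86 without the 2 libraries farthest from the median of Clock. Clock and Nr1d2 had an r of 0.84 (permutation p = 0.00156, adjusted p = 0.0479) and a rho of 0.94 (permutation p = 0.0003, adjusted p = 0.0135). That r was 0.79 without the same 2 libraries, untreated replicates 2 and 5. No other pair passed, and the adjusted p of r for both of these pairs lay just under 0.05. With the group means kept, none passed.

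Arntl and Dbp, known for opposite phases, ran against each other in the 6 libraries of numbers 1 to 3, and the relation did not pass over all 10. Over 10 libraries r was -0.32 (permutation p = 0.366, adjusted p = 0.77) and rho -0.37 (permutation p = 0.298, adjusted p = 0.667), and r was 0.07 without BT-11 replicates 2 and 3. Within numbers 1 to 3, r was -0.98 (exact permutation p = 0.00278, adjusted p = 0.0469, n = 6) and rho -0.94 (exact permutation p = 0.0167). There r was -0.97 with group means kept, and also -0.97 without the 2 libraries farthest from the median of Arntl. In those 6 libraries Dbp was highest, at 118 CPM, where Arntl was lowest, at 24.2 CPM, in untreated replicate 3. Dbp was lowest, at 91.0 CPM, where Arntl was highest, at 33.5 CPM, in BT-11 replicate 3. Untreated replicate 5 went against this order, with the highest Dbp (134 CPM) and an Arntl of 31.3 CPM.

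Within the same 6 libraries 3 further pairs passed. Clock and Cry2 had an r of 0.93 and a rho of 0.94 (exact permutation p = 0.00417, adjusted p = 0.0469 for r), and the exact p of rho was 0.0167. Per1 and Arntl had an r of -0.90 (exact permutation p = 0.00139, adjusted p = 0.0469), and Per1 and Dbp one of 0.85 (exact permutation p = 0.00417, adjusted p = 0.0469). These last 2 pairs rest on the removal of the group means, since with the means kept r was 0.04 and -0.17. Clock and Nr1d2 had an r of 0.62 within these libraries (exact permutation p = 0.199, adjusted p = 0.456), and -0.28 without the 2 libraries farthest from the median of Clock, so that this pair did not hold there. Numbers 4 and 5 hold too few libraries for a value of their own, and whether a correlation differs between the sets was not tested. All pairs share their libraries and normalization, and the 6 libraries were set apart by a split seen in the data. The adjusted p of each pair that passed lay just under 0.05, from permutations that do not allow for the removed means.

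**Figure D4:**
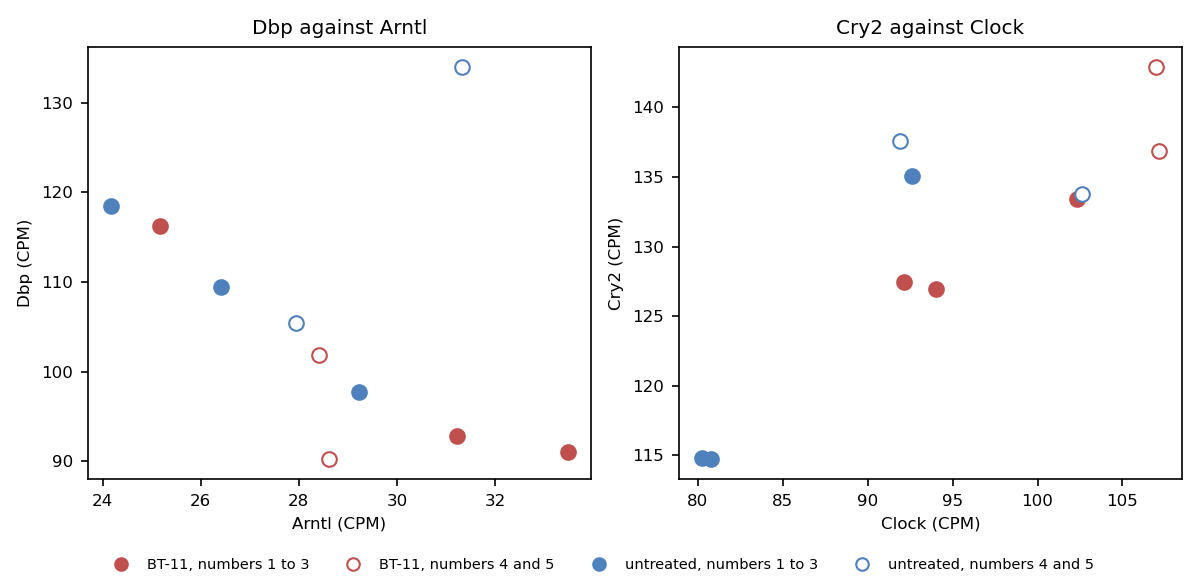
CPM of Dbp against Arntl and of Cry2 against Clock, 1 point per library, with filled points for replicate numbers 1 to 3, open points for numbers 4 and 5, red for BT-11 and blue for untreated rats. The axes do not start at 0. The filled points of Dbp and Arntl run down from left to right, with untreated replicate 5 away at the upper right, and Cry2 and Clock run upward together.

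Genes whose levels followed the members most closely were sought among 9865 genes with a mean of at least 5 CPM, against the mean centred log2 CPM of Per1, Per2, Per3, Nr1d1, Nr1d2, Dbp and Tef over the 10 libraries. The highest Pearson r was 0.96 for Tmem132a, followed by Dnaja3 at 0.93, Chd8 at 0.91, Sdk2 at 0.90 and Dclre1a at 0.89. The lowest were -0.93 for Pcyox1l and Yaf2, -0.92 for Mapre1 and Cdk8 and -0.90 for Tmem41b. Tmem132a, a membrane protein gene, was at 147, 166, 156, 132 and 143 CPM in BT-11 rats, against 108, 142, 164, 152 and 209 CPM in untreated rats. The profile was led by untreated replicate 5 at the top and untreated replicate 1 at the bottom. Without those libraries the r of Tmem132a was 0.89 and that of Dclre1a 0.60. These genes were chosen for their r, which is given as a description.

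Per1 had other neighbours, a search added after its values were seen. The 5 genes with the highest r to Per1 over the 10 libraries were Fosb (0.95), Junb (0.91), Sf3b4 (0.91), Tmem259 (0.91) and Arc (0.88). Fosb, Junb and Arc are induced by neuronal activity, while Sf3b4 and Tmem259 are not on the list of activity-induced genes. Fosb was at 29.4, 27.5, 28.8, 15.0 and 16.8 CPM in BT-11 rats, against 20.7, 21.7, 23.2, 16.6 and 21.9 CPM in untreated rats. As for Per1, the 2 lowest BT-11 libraries were numbers 4 and 5 and the lowest untreated library was number 4. Within numbers 1 to 3 the r of Fosb, Junb and Arc to Per1 was 0.81, 0.69 and 0.70, and that of Sf3b4 and Tmem259 was 0.89 and 0.82.

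The libraries held 8984439 to 11301545 estimated counts, with a mean of 10538161 ± 618560 in BT-11 and 9578407 ± 972638 in untreated rats (SD, n = 5 each). Of 15 markers of hippocampal neurons 14 were in the table, with summed levels of 2891 to 4274 CPM in BT-11 and 2693 to 3849 CPM in untreated libraries. Summed choroid plexus markers were at 118 to 214 CPM in BT-11 and 156 to 4585 CPM in untreated libraries, and meningeal markers at 165 to 203 and 173 to 575 CPM in the same groups.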

How the data were processed

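Left hippocampi of 5 BT-11 and 5 untreated rats were sequenced for messenger RNA, as strand-specific single-end libraries per the labels' protocols. Build rn6 and the tools STAR 2.7.9a, Partek, bcl2fastq 2.19.1.403 and DESeq2 appear in the submitters' processing notes, without roles. What counted the reads, with which strand setting and gene models, is not stated here by any source used, so reads of overlapping or antisense genes are uncertain.

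The authors deposited estimated counts per gene model, of which 83.3% were whole (within 1e-09), and the authors' CPM, which equal the deposited count scaled by the column total plus 0.0001. The gene model length in the deposited table was used as listed for levels per kilobase. Lines of a symbol were summed, and estimated counts were rounded for the tests. CPM in the text are summed estimated counts scaled to a library total of 1e+06. Within groups, the chi-square per degree of freedom between libraries was 4.52 to 32.4, so none was counted as a duplicate.

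BT-11 and untreated libraries were compared in R 4.3.3 by edgeR 4.0.16 (TMM factors, robust quasi-likelihood fit). Its default filter left out 1915 genes and kept 11771. Tests were two-sided, with Benjamini-Hochberg adjustment across every gene that was kept. On simulated counts for 11771 genes, this test recovered 86.0% of 2-fold and 59.7% of 1.5-fold changes, and 4.70% of its calls were unchanged genes. The biological coefficient of variation was 0.14. P-values measure the spread between these animals. Log2 CPM used a prior count of 2. Correlations used 100000 permutations for 10 libraries and all 720 for 6 libraries (Python 3.11.15, numpy 2.4.6), where permuted values had group means removed. An exact p means here that all 720 orders were used, and it does not allow for the removed means.

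Genes named are the 10 members, the other clock genes with the smallest p together with fixed core genes, the 3 other listed genes with the smallest p, and those closest in profile; genes that stand apart between replicate numbers were named after their values were seen. The members, lists, split of replicate numbers and alternatives were chosen with earlier results of these data known. Alternatives were DESeq2 1.42.0, limma-voom (limma 3.58.1), other normalizations, filters and gene models, limma on log2 of the authors' CPM with a pseudocount of 1 or 0.1, covariates, a replicate block and left-out libraries.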

Additional observations from a re-analysis of the deposited data

Results flagged for a closer look

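Per1 in untreated replicate 4 was at 36.7 CPM, while the other untreated libraries were at 46.6 to 49.7 CPM, a gap wide enough to mark it as far from its group. Without that library the log2 fold change of Per1 was 0.11 in place of 0.18. Over all fits with 1 library left out it ran from 0.07, without BT-11 replicate 2, to 0.30, without BT-11 replicate 4. Per2 in BT-11 replicate 3 was at 53.3 CPM, while the other BT-11 libraries were at 39.6 to 41.8 CPM. Without that library the log2 fold change of Per2 was -0.20 in place of -0.11 (edgeR adjusted p = 0.577). Without untreated replicate 2 it was -0.06, and without untreated replicates 2 and 5 -0.0063. The rule was applied to 20 groups of 5 libraries and marks about 1 in 20 by chance.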

How the results depend on the processing

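No clock member and no other clock gene passed in any of the 26 alternatives. Of 260 member fold changes recomputed, 252 kept their direction. The 8 that changed it were Per2 (0.0066) within numbers 1 to 3, Per1 (-0.17), Arntl (-0.056) and Tef (-0.065) within numbers 4 and 5, and Tef with a choroid plexus covariate (-0.038), without untreated replicates 2 and 5 (-0.023) and without untreated replicate 1 or 2. With 1 library left out at a time Tef ran from -0.014 to 0.056 and Per3 from 0.30 to 0.46. Per3, Clock, Cry2, Nr1d1, Nr1d2 and Dbp kept their direction in all 26. The median over the members ran from -0.09 to 0.08. Over all genes, edgeR called 0, DESeq2 40, the fit within numbers 4 and 5 479, and fits without 1 library from 0 to 62, the highest without untreated replicate 3. The count of correlated pairs was 2, against 0 with group means kept and 4 within numbers 1 to 3. The count of members whose sets of numbers did not overlap was 1, against 0 on library totals. The interaction of Per1 ran from -0.70 to -0.33, with adjusted p from 0.156 to 0.91. The causes of these changes were not tested. After the group mean of each gene was removed, same-numbered libraries of the 2 groups correlated at 0.04 to 0.22. On those values 3 of the 5 BT-11 libraries matched best with their own number. This does not settle whether the numbers are pairs, and the main fit did not take them as pairs. With the replicate block 0 genes and 0 members were called and Per3 was at 0.42. The block raised the genes at an unadjusted p under 0.05 to 1320, against 1070 without it, and the members to 4, against 2. Over all alternatives that count of members ran from 0, without BT-11 replicate 5 (757 of 11839 genes tested), to 4. Counting error limits Per3 most, with 89 to 252 estimated counts.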

Other observations

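The deposited table lists Dbp on 3 gene models, Clock on 2 and Nr1d1 on 2, each at 1 locus, and the estimated counts are split between them. The shortest Dbp model (1249 bases) was at 10.4, 15.1, 4.63, 8.56 and 6.21 CPM in BT-11 rats, against 25.9, 22.2, 11.8, 20.2 and 12.1 CPM in untreated rats. The longest Dbp model (1660 bases) was at 80.1 ± 6.03 CPM in BT-11 and 84.6 ± 17.5 CPM in untreated rats (SD, n = 5 each). The most highly counted model alone, tested for each symbol, gave log2 fold changes of -0.09 for Dbp, 0.09 for Clock and -0.17 for Nr1d1 (edgeR adjusted p = 0.855, 0.856 and 0.616), while the shorter models were not tested. The split of reads between models of 1 locus is an estimate. For Clock, the shorter model (9204 bases) was at 45.3 ± 6.48 CPM in BT-11 and 38.3 ± 5.42 CPM in untreated rats, and it held 32.0% of the Clock counts in untreated replicate 4, against 38.8% to 48.5% in the other untreated libraries.

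Of the listed genes outside the clock, the 3 with the smallest p between BT-11 and untreated rats were Agt (angiotensinogen), Nefm (a neurofilament subunit) and Lum (lumican, made by fibroblasts). Their log2 fold changes were -0.41, -0.48 and -1.18 (edgeR adjusted p = 0.402 for each).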
